A study of Mus musculus with 19 samples.

Results

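Ribosome-bound mRNA of spinal cord cholinergic neurons was compared between mice taken at lights on (ZT0) and mice taken 4 h later (ZT4). These are 6 of the 19 libraries of the series, with 3 animals at each time, and they were chosen by their time point alone. The animals were 10-week-old male C57BL/6J mice that carried ChAT-Cre and 1 floxed RiboTag allele (fx/+), so all of them, at ZT0 and ZT4 alike, made ribosomes with a hemagglutinin tag on RPL22 in cells with Cre, and no clock gene was deleted. They lived in 12 h of light and 12 h of dark, and each library came from ribosomes precipitated out of 1 spinal cord. The rest of the series held 12 immunoprecipitates from ZT8, ZT12, ZT16 and ZT20 and 1 pooled input, the homogenate before precipitation. ChAT-Cre marks every spinal cell that uses Chat, visceral motor neurons and cholinergic interneurons as well as the motor neurons of skeletal muscle, and the libraries do not separate them.

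Zeitgeber time counts hours from lights on. Mice are active at night, so ZT0 is the end of their active phase and ZT4 lies within their rest. The clock of each cell is a loop in which BMAL1 (gene Arntl) and CLOCK drive the Per and Cry genes through a DNA element called the E-box, and PER and CRY proteins then hold BMAL1 and CLOCK back. A second loop of ROR activators and REV-ERB repressors sets the level of Arntl, and PAR bZIP factors such as DBP, TEF and HLF carry the rhythm to other genes. In tissues outside the master clock of the brain, Per2 mRNA is known to peak around the onset of darkness.

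Total counts were 16160721, 11020292 and 20856622 in the ZT0 libraries and 15350573, 22406850 and 6651455 in the ZT4 libraries, replicates 1 to 3 in order, so ZT4 replicate 3 was the shallowest of the 6. Levels are given as CPM, counts divided by the TMM-scaled library size and put on a common per-library scale, and the log2 change is the fitted ZT4 level minus the fitted ZT0 level with its SE. The 6 measured cholinergic genes, of 7 listed, summed to between 1644 and 2801 CPM in the 6 libraries against 422 CPM in the input. The summed markers of other cells were each lower in the 6 libraries than in the input, at 1527 to 2230 against 21824 CPM for 7 oligodendrocyte genes, 143 to 189 against 2951 CPM for 6 astrocyte genes and 249 to 343 against 826 CPM for 4 inhibitory neuron genes. Between the times, the summed oligodendrocyte markers overlapped (2036 ± 196 CPM at ZT0 and 1739 ± 185 CPM at ZT4, SD, n = 3), as did the erythrocyte markers (270.4 ± 58.9 and 365 ± 75.6 CPM).

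No gene passed an adjusted p of 0.05 (0% of 15572 genes tested, edgeR quasi-likelihood test with Benjamini-Hochberg adjustment), and the lowest adjusted p was 0.0951. With unadjusted p under 0.05, 1582 genes (10.2%) were higher and 1529 (9.82%) were lower at ZT4, 3111 in all. The number that passed depended on the tool and on which libraries entered the fit. DESeq2 called 813 genes and limma-voom 11, edgeR on the 6 libraries alone called 1518, and edgeR without ZT8 replicate 1 called 376. Values below are therefore given as levels and their spread, and no single gene is called.

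The groups of many genes were nonetheless apart. In 2047 genes (13.1%) all 3 ZT4 libraries lay above all 3 ZT0 libraries, and in 2275 (14.6%) all 3 lay below. The log2 change of these 4322 genes had a median size of 0.44, and 472 of them differed by at least 1 on the log2 scale, 157 higher and 315 lower at ZT4. The median log2 change of all genes was -0.0011. The plot of size against p shows both sides of this spread.

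**Figure D1:**
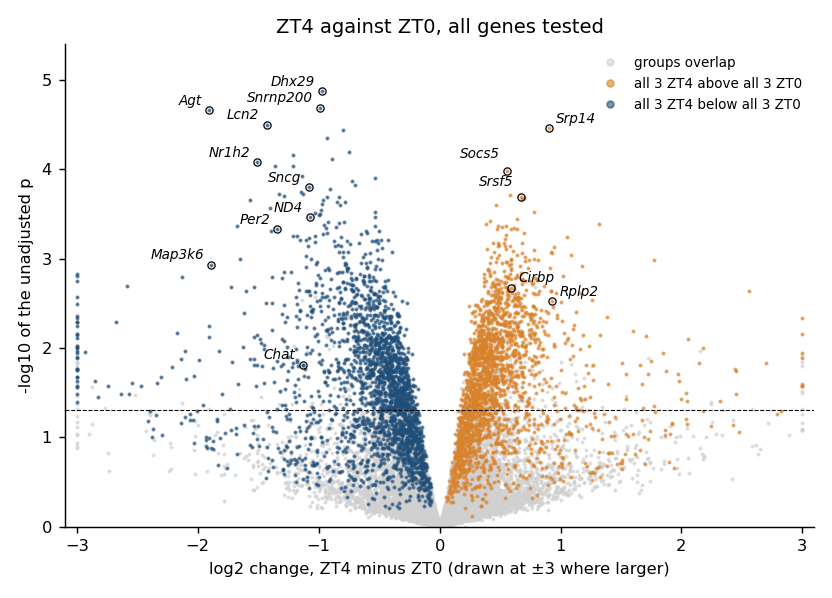
Log2 change from ZT0 to ZT4 (x axis) against -log10 of the unadjusted edgeR p (y axis) for 15572 genes. Orange genes have all 3 ZT4 libraries above all 3 ZT0 libraries (2047) and blue genes all 3 below (2275); the dashed line is the unadjusted threshold, and no gene passed after adjustment.

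The same separation appeared in the largest axis of variation. In a principal component analysis of the 18 immunoprecipitates (log2 CPM, 9214 genes), the first axis took up 52.8% of the variance. Its scores were -22.3, -8.29 and -18.8 at ZT0 and 4.32, 19.9 and 15.1 at ZT4. The groups did not overlap, and the difference of their means was 29.6 (exact permutation test, two-sided p = 0.1, the smallest that 3 against 3 allows). The mean of neighbouring ZT8 lay further out on the ZT4 side, at 25.8. Its scores were 5.03, 42.6 and 29.7, and the lowest of them lay within the ZT4 range. Across the same genes, the ZT4 minus ZT0 change was correlated with the changes between the other time points, which share no library with it, and Pearson r ran over these 6 contrasts from -0.543 for ZT16 minus ZT20 to 0.846 for ZT8 minus ZT16. The difference between animals of 1 time point, taken for the 12 pairs outside ZT0 and ZT4, gave absolute r from 0.214 to 0.723, with a median of 0.538. These values describe an axis that animals of the same time point also spread along, genes are not independent replicates, and the cause of the axis was not tested.

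**Figure D2:**
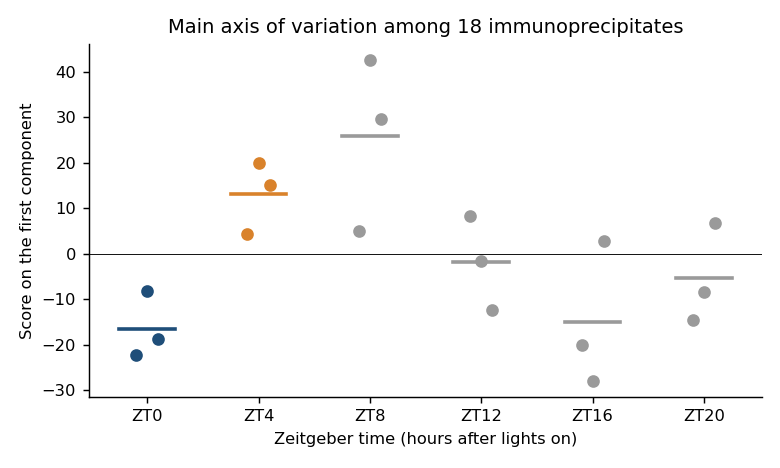
Score of each of the 18 immunoprecipitates on the first principal component (y axis, arbitrary sign) by Zeitgeber time (x axis), with a bar at the mean of 3 animals. The 3 ZT4 libraries (orange) sit between 4.32 and 19.9, all above the 3 ZT0 libraries (blue) at -22.3 to -8.29.

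The core clock was read first, from 28 measured genes in 3 lists (activators, repressors, outputs and modifiers). Per2, a repressor of the loop, stood furthest apart, at 5.09, 3.80 and 5.35 CPM at ZT0 and 1.35, 2.25 and 2.05 CPM at ZT4. All 3 ZT4 animals lay below all 3 ZT0 animals, and the log2 change was -1.34 ± 0.32 (edgeR, adjusted p = 0.106). The low count of Per2 limits its precision. Its relative Per1 was at 29.1, 25.5 and 23.7 CPM at ZT0 and 18.1, 16.5 and 22.5 CPM at ZT4, again with no overlap (log2 change -0.47 ± 0.16, adjusted p = 0.131, edgeR). Per3 was at 4.98 ± 0.844 CPM at ZT0 and 5.12 ± 3.17 CPM at ZT4 (SD, n = 3), with overlapping groups. Of the cryptochromes, Cry1 was at 4.79 and 3.66 CPM at ZT0 and ZT4 and Cry2 at 121 and 111 CPM, and in both genes the groups overlapped.

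Arntl, which encodes the activator BMAL1, was at 8.40, 9.23 and 9.88 CPM at ZT0 and 7.11, 5.95 and 6.46 CPM at ZT4. The ZT4 values all lay below the ZT0 values (log2 change -0.50 ± 0.20, adjusted p = 0.166, edgeR). Its partner Clock was at 24.9 ± 3.30 CPM at ZT0 and 28.1 ± 3.48 CPM at ZT4 (SD, n = 3), with overlap, and Npas2, which can stand in for Clock, was at only 1.60 and 1.00 CPM. Among the nuclear receptors that act on Arntl, Rorb was at 3.53 ± 0.361 CPM at ZT0 and 2.04 ± 0.622 CPM at ZT4 (SD, n = 3), without overlap and lower at ZT4, whereas Rora (32.9 and 36.7 CPM) overlapped. The REV-ERB genes Nr1d1 (33.6 and 35.8 CPM) and Nr1d2 (54.3 and 63.5 CPM) overlapped between the times.

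Other members of the loop lay on the opposite side. Bhlhe41, which encodes the repressor DEC2, was at 91.1, 88.5 and 86.0 CPM at ZT0 and 112, 132 and 128 CPM at ZT4, so that every ZT4 animal lay above every ZT0 animal (log2 change 0.49 ± 0.14, adjusted p = 0.111, edgeR). Its relative Bhlhe40 was at 51.2 and 54.3 CPM, with overlap. The PAR bZIP factor Hlf was at 8.46, 9.69 and 10.1 CPM at ZT0 and 12.0, 15.1 and 13.7 CPM at ZT4, with no overlap, and Tef at 98.3, 101 and 104 CPM at ZT0 and 115, 123 and 126 CPM at ZT4, also with no overlap (log2 changes 0.53 ± 0.20 and 0.27 ± 0.11). Dbp, the PAR bZIP gene with the widest swing in most tissues, was at 10.3 ± 1.39 CPM at ZT0 and 12.7 ± 2.37 CPM at ZT4 (SD, n = 3), and 2 ZT4 animals lay within the ZT0 range. Csnk1d, a kinase that marks PER proteins for turnover, was at 282 ± 11.9 CPM at ZT0 and 346 ± 24.2 CPM at ZT4, with all ZT4 values higher (log2 change 0.30 ± 0.09).

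By list, 3 of 6 activators had all ZT4 libraries below ZT0 and none had all above, against 14.6% and 13.1% of all genes. The repressors had 1 of 10 above and 2 below, and the outputs and modifiers 4 of 12 above and none below. The median log2 change was -0.33 for the activators, 0.07 for the repressors and 0.22 for the outputs and modifiers.

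**Figure D3:**
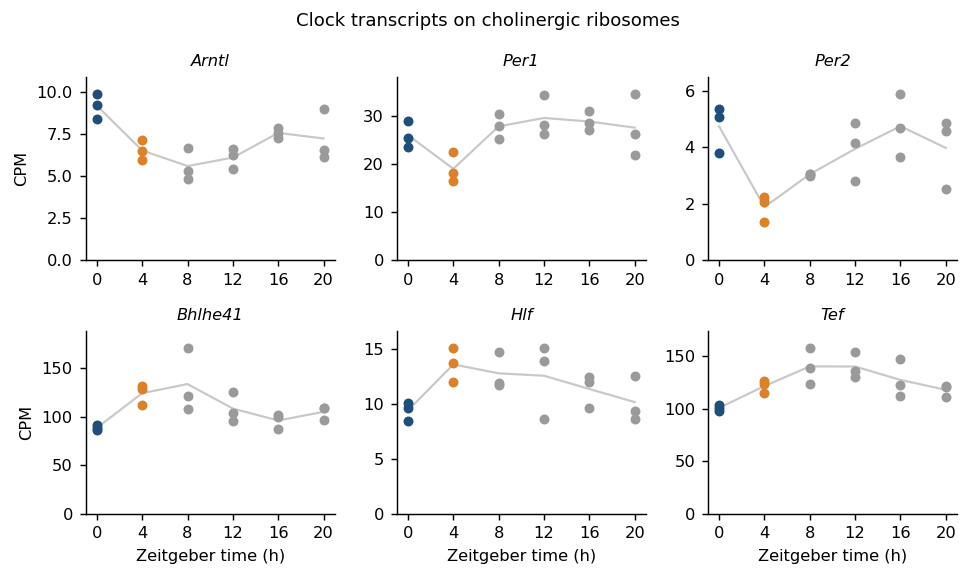
Level (CPM, y axis from 0) of 6 clock genes in each of the 18 immunoprecipitates by Zeitgeber time in hours (x axis); each dot is 1 animal and the line joins the means. At ZT4 (orange) Arntl, Per1 and Per2 lie below and Bhlhe41, Hlf and Tef above all ZT0 animals (blue).

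The E-box that BMAL1 and CLOCK bind was sought as CACGTG, on both strands, in the 250 bases before 1 RefSeq start of each gene (GRCm38.p6), the first listed where a gene had several (2438 of 11803 genes), and windows of other starts were not searched. The start used for Per1 lies inside the annotated span of the gene and not at its first base. This choice was made after the values had been seen. Of the clock genes with non-overlapping groups, 3 hold it, and they are printed to show that genes on both sides of the comparison carry the same letters, in capitals here:
Per1, chr11:69098766-69098805, plus strand: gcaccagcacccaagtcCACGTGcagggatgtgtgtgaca
Tef, chr15:81802529-81802568, plus strand: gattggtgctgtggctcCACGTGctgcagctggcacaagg
Bhlhe41, chr6:145865551-145865590, minus strand: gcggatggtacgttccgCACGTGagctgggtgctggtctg
The element starts 166 bases before the start used in Per1, 127 in Tef and 153 in Bhlhe41. It stood in 4 of 8 repressor promoters (Cry1 and Ciart are the other two), 1 of 9 output promoters and 0 of 5 activator promoters, and in 8.25% of all 11803 promoters. Genes whose ZT4 libraries all lay above ZT0 held it in 9.48% and those all below in 8.91% of promoters. A match of letters is a description and not a site of binding.

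Temperature and stress genes differed among themselves. Body temperature of mice is lower in the light phase, and heat-shock chaperones and cold-inducible RNA-binding proteins are known to follow it in opposite directions. Cirbp, the cold-inducible RNA-binding protein, was at 63.3, 65.1 and 58.2 CPM at ZT0 and 89.3, 99.4 and 92.6 CPM at ZT4, and its ZT4 values all lay above (log2 change 0.59 ± 0.17, adjusted p = 0.111, edgeR). Rbm3, the other gene of this kind, was at 48.9 and 59.8 CPM, with overlap. The constitutive chaperone Hspa8 was at 5662, 4999.8 and 5443 CPM at ZT0 and 4128, 3676 and 4152 CPM at ZT4, all lower at ZT4 (log2 change -0.43 ± 0.11, adjusted p = 0.106, edgeR). The heat-inducible Hspa1b was at 16.4, 17.0 and 14.5 CPM at ZT0 and 8.33, 6.78 and 5.83 CPM at ZT4, also without overlap (log2 change -1.17 ± 0.33). Its near-identical copy Hspa1a, named here after its values were seen, was at 27.8 ± 5.64 CPM at ZT0 and 18.2 ± 2.84 CPM at ZT4 (SD, n = 3), and reads of this pair cannot be divided with certainty. Hsf1, the heat-shock transcription factor, was at 31.4 and 21.8 CPM and Dnajb1, a co-chaperone, at 67.9 and 47.3 CPM, both without overlap.

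The chaperones Hsp90aa1 (2753 and 3005 CPM), Hsph1 (361 and 334 CPM) and Hspb1 (592 and 669 CPM) had log2 changes of 0.13, -0.11 and 0.18. In the list of 18 temperature-responsive genes, 4 had all ZT4 libraries above and 5 all below, with a median log2 change of 0.10. The shares were 22.2% and 27.8%, against 13.1% and 14.6% of all genes. Besides Cirbp, those above were the chaperones Hsp90aa1, Hspe1 and Hspd1, with log2 changes of 0.13, 0.46 and 0.12. Those below were Hspa8, Hspa1b, Hspa1a, Hsf1 and Dnajb1, so chaperones lay on both sides. The core of the heat-shock element, written GAANNTTC, was sought in the same windows. Hspa1a and Hspa1b carry the same stretch, shown because both genes were lower at ZT4 and their reads are hard to tell apart, with the core in capitals:
Hspa1a, chr17:34972236-34972277, minus strand: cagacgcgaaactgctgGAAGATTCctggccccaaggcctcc
Hspa1b, chr17:34959318-34959359, minus strand: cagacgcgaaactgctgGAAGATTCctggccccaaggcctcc
The core starts 104 bases before the start of both genes. It stood in 5 of 13 promoters of the list (Dnaja1, Hspb1 and Hspe1 besides the pair) and in 4.71% of all promoters, at 4.74% where ZT4 lay above and 5.07% where it lay below.

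Genes of the unfolded protein response and of endoplasmic reticulum folding were read next. Hspa5, which encodes BiP, was at 478, 450.2 and 462 CPM at ZT0 and 355, 317 and 307 CPM at ZT4, and Calr, the calcium-binding chaperone calreticulin, at 299, 271 and 277 CPM at ZT0 and 194, 152 and 181 CPM at ZT4. In both the ZT4 values all lay below (log2 changes -0.51 ± 0.13 and -0.69 ± 0.19, adjusted p = 0.111 for each, edgeR). Of 22 unfolded protein response genes, 8 had all ZT4 libraries below and 0 all above, against 14.6% and 13.1% of all genes, with a median log2 change of -0.17. The chaperones Hsp90b1, Canx and Manf of the same list had log2 changes of 0.07, 0.06 and 0.12. Atf4, the stress-induced transcription factor, was at 196 and 273 CPM and overlapped. Autophagy and lysosome genes had 11 of 30 all below and 0 all above, read against the same shares of all genes, and a median of -0.15. Sqstm1, the cargo receptor p62, was at 1166, 999 and 1009 CPM at ZT0 and 751, 667 and 821 CPM at ZT4, with no overlap (log2 change -0.50 ± 0.12, adjusted p = 0.106, edgeR). Nbr1, a receptor for ubiquitin-tagged cargo, was at 107 and 81.5 CPM and Map1lc3b, which encodes the autophagosome protein LC3B, at 270.2 and 217 CPM, both all lower at ZT4.

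Glucocorticoid and activity-induced genes were then compared, since corticosterone of mice is known to be low in the early light phase. Map3k6 was at 1.47, 2.99 and 2.40 CPM at ZT0 and 0.577, 0.529 and 0.788 CPM at ZT4, all lower at ZT4 but close to 1 CPM, and Lcn2, which encodes the siderophore-binding protein lipocalin 2, was at 14.8, 12.4 and 10.6 CPM at ZT0 and 4.93, 3.92 and 5.36 CPM at ZT4 (log2 change -1.43 ± 0.27, adjusted p = 0.0951, edgeR). Dusp1, a phosphatase that shuts off stress kinases, was at 20.4, 17.7 and 21.1 CPM at ZT0 and 11.2, 7.93 and 12.6 CPM at ZT4, again all lower at ZT4. The 2 members with all ZT4 libraries above were Nfkbia and Tsc22d3, of which Tsc22d3, the gene of the anti-inflammatory GILZ, was at 393 ± 48.3 CPM at ZT0 and 496 ± 24.6 CPM at ZT4 (SD, n = 3). Fkbp5, the co-chaperone of the receptor, was at 111 and 108 CPM, with overlap. In all, 2 of 19 members lay above and 5 below (10.5% and 26.3%, against 13.1% and 14.6% of all genes), with a median log2 change of -0.04.

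Immediate early genes, which neurons switch on with activity, had 1 of 26 members all above and 4 all below, with a median of 0.09. These were 3.85% and 15.4%, against 13.1% and 14.6% of all genes, so the share below was near that of all genes. Arc, a synaptic activity marker, was at 11.5, 8.15 and 7.06 CPM at ZT0 and 5.13, 4.49 and 4.57 CPM at ZT4 and Fos at 26.9 ± 1.04 CPM at ZT0 and 16.8 ± 1.46 CPM at ZT4 (SD, n = 3), both all lower at ZT4. Gadd45g, a growth-arrest gene, was at 17.1, 15.5 and 13.9 CPM at ZT0 and 20.8, 30.0 and 29.0 CPM at ZT4, all higher (log2 change 0.78 ± 0.24). Several members, among them Egr4, Npas4 and Nr4a3, were under 2 CPM and their values say little.

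Energy metabolism had the largest share of members on the higher side among the 24 lists. Respiratory chain subunits encoded in the nucleus had all ZT4 libraries above ZT0 in 52 of 78 genes (66.7%, against 13.1% of all genes) and all below in 9, with a median log2 change of 0.40. Their summed level was 22688, 25680 and 22557 CPM at ZT0 and 27105, 30072 and 31767 CPM at ZT4, which did not overlap. Grouped by symbol, all 10 Cox genes of complex IV lay above, as did 26 of 38 Nduf genes, most of them of complex I. So did 10 of 17 of ATP synthase and 4 of 9 of complex III. Cox4i1, a subunit of cytochrome c oxidase, was at 1095, 1424 and 1082 CPM at ZT0 and 1674, 2017 and 2184 CPM at ZT4 (log2 change 0.71 ± 0.20, adjusted p = 0.111, edgeR). Cox6b1 (404 and 711 CPM), Uqcrh (378 and 686 CPM) and Atp5l (348 and 597 CPM) were also all higher at ZT4.

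Exceptions on the lower side included catalytic subunits. Atp5b, the catalytic subunit of ATP synthase, was at 1645 ± 104 CPM at ZT0 and 1079 ± 214 CPM at ZT4 and Cyc1, cytochrome c1, at 233 ± 16.2 CPM at ZT0 and 156 ± 17.2 CPM at ZT4 (SD, n = 3), with no overlap in either. Ndufb2, a complex I subunit, was at 66.8, 65.6 and 65.9 CPM at ZT0 and 44.7, 32.3 and 41.4 CPM at ZT4, the lowest p of the list (log2 change -0.75 ± 0.15, adjusted p = 0.106, edgeR). Ndufa10 was at 259 ± 12.7 CPM at ZT0 and 169 ± 19.7 CPM at ZT4, also all lower at ZT4.

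Genes of the mitochondrial genome lay on the other side. The 13 genes summed to 4021, 3368 and 4582 CPM at ZT0 and 3204, 3079 and 2322 CPM at ZT4, without overlap, and the median log2 change was -0.65. ND4 was at 428, 328 and 447 CPM at ZT0 and 222, 206 and 143 CPM at ZT4, CYTB at 342 ± 65.5 CPM at ZT0 and 168 ± 38.0 CPM at ZT4 and ND2 at 269.9 ± 49.4 CPM at ZT0 and 134 ± 26.1 CPM at ZT4 (SD, n = 3). In 5 of the 13 all ZT4 libraries lay below and in 0 above, against 14.6% and 13.1% of all genes. COX1 (836 and 582 CPM) overlapped, and ND6 was near 1 CPM. As a percentage of the summed nuclear-encoded subunits, the mitochondrial sum was 17.7, 13.1 and 20.3 at ZT0 and 11.8, 10.2 and 7.31 at ZT4. In the input the 13 genes held 50186 CPM, so the precipitate retains a small part of them. The tag is on RPL22, a protein of cytosolic ribosomes, so these values cannot be read as mRNA on tagged ribosomes. Whether carry-over, from other cells or from the cholinergic cells themselves, differed between the times was not tested.

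**Figure D4:**
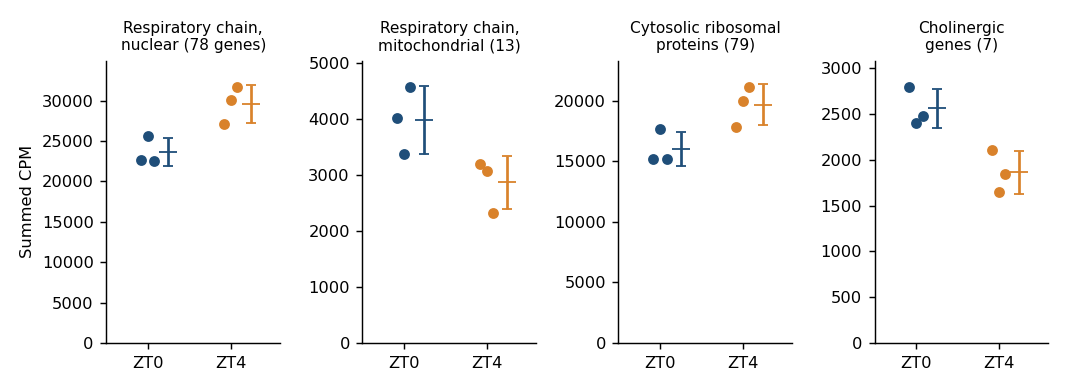
Summed CPM (y axis from 0) of 4 gene lists in the ZT0 (blue) and ZT4 (orange) libraries; dots are animals, and bars show the mean ± SD of 3. The ZT4 animals lie above for nuclear-encoded respiratory chain subunits (27105 to 31767) and below for mitochondrially encoded (2322 to 3204) and cholinergic genes (1644 to 2106). The cholinergic sum holds the 6 measured genes of the 7 listed.

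Ribosomal proteins and proteasome subunits were taken next, and none of them passed the adjusted threshold. Cytosolic ribosomal proteins had 38 of 79 genes all above and 2 all below, against 13.1% and 14.6% of all genes, with a median of 0.35 and a sum of 16014 ± 1435 CPM at ZT0 and 19683 ± 1673 CPM at ZT4 (SD, n = 3). Rplp2, of the ribosomal stalk, was at 144, 176 and 127 CPM at ZT0 and 203, 300.1 and 351 CPM at ZT4 and Rps3a1 at 239 ± 32.5 CPM at ZT0 and 367 ± 44.2 CPM at ZT4, both all higher. Rpl22, whose protein bears the tag, was at 76.0, 85.9 and 70.5 CPM at ZT0 and 96.8, 105 and 96.6 CPM at ZT4, also all higher. Only Rpl3 and Rps4x of the 79 were all lower, with Rpl3 at 386, 377 and 370.3 CPM at ZT0 and 323, 297 and 322 CPM at ZT4 (log2 change -0.27 ± 0.08, adjusted p = 0.111, edgeR). Mitochondrial ribosomal proteins had 34 of 77 all above and 3 all below, with Mrpl11 at 55.5 ± 4.48 CPM at ZT0 and 91.9 ± 3.79 CPM at ZT4, all higher. Mrps22, the lowest by log2 change, was at 15.5 ± 3.07 CPM at ZT0 and 8.04 ± 3.66 CPM at ZT4 (SD, n = 3), with overlapping groups. Proteasome genes had 16 of 37 above. Grouped by symbol, these were 8 of 17 Psma and Psmb genes of the core particle and 8 of 20 Psmc and Psmd genes. The latter hold the regulatory particle and some of its assembly factors, and the 6 below were all Psmc or Psmd genes. Psmb10, a core subunit of the immunoproteasome, was at 40.1 and 61.8 CPM, Psmd14, the deubiquitinase of the lid, at 72.9 and 46.4 CPM and Psmd5 at 43.6 and 28.6 CPM.

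Transcript length moved with these lists. Genes whose longest GENCODE M21 transcript was at most 2081 bases long (3687 of 14729 genes) had a median log2 change of 0.14, with 19.7% all above and 10.4% all below, whereas the longer genes, taken in 3 classes of rising length, had medians of -0.04, -0.05 and -0.03. The ribosomal and respiratory lists are mostly such short genes, with 68 of 79 cytosolic ribosomal proteins and 61 of the 75 respiratory subunits that had a length. Among their longer members the medians were 0.40 (11 genes) and 0.18 (14 genes), of which 6 and 7 lay all above, against 11.0% of all longer genes. All below lay 0 and 3 of them, against 16.6%. Medians of short and longer members were 0.28 and 0.23 in mitochondrial ribosomal proteins. They were 0.20 and -0.05 in proteasome subunits and 0.51 and 0.07 in the splicing factors read next. The part of length in the results was not tested further.

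RNA processing genes were read as a list of splicing factors. Of 60 splicing factors 23 lay all above and 2 all below, against 13.1% and 14.6% of all genes, with a median of 0.15. The small Sm proteins, which form the core of spliceosomal snRNPs, had 6 of 7 above (median 0.54), and Snrpb was at 112 ± 17.5 CPM at ZT0 and 185 ± 59.5 CPM at ZT4 (SD, n = 3). The SR proteins had 5 of 10 above and 0 below, and Srsf5 was at 84.6, 95.1 and 95.0 CPM at ZT0 and 139, 152 and 147 CPM at ZT4 with no overlap (log2 change 0.67 ± 0.15, adjusted p = 0.106, edgeR). Prpf19, the ubiquitin ligase of the spliceosome, was instead at 503, 411 and 441 CPM at ZT0 and 339.7, 256 and 308 CPM at ZT4, all lower at ZT4. Snrnp200, the helicase that unwinds U4 from U6 and was not on the list, was at 49.7, 45.6 and 48.7 CPM at ZT0 and 25.0, 25.4 and 21.7 CPM at ZT4, all lower as well (log2 change -0.99 ± 0.18, adjusted p = 0.0951, edgeR).

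RNA-binding proteins linked to amyotrophic lateral sclerosis were on both sides, with 4 of 10 all above, 2 all below and a median of 0.03. Of all genes, 13.1% lay above and 14.6% below. Hnrnpa2b1 was at 246, 289.7 and 286 CPM at ZT0 and 338, 383 and 372 CPM at ZT4, all higher at ZT4. Taf15 was at 52.9 ± 2.90 CPM at ZT0 and 74.9 ± 11.9 CPM at ZT4 (SD, n = 3), again all higher. Hnrnpa1 was at 116, 114 and 118 CPM at ZT0 and 92.1, 68.6 and 80.8 CPM at ZT4 and Atxn2 at 62.3 ± 8.43 CPM at ZT0 and 46.2 ± 2.11 CPM at ZT4, both all lower. Tardbp, which encodes TDP-43, was at 112 and 121 CPM and Ncbp1 at 47.3 and 45.7 CPM, with overlap. Hnrnpa2b1, Atxn2, Taf15 and Ncbp1 had been picked out on these same libraries, so their directions are not independent evidence.

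Genes that define cholinergic transmission were lower at ZT4. Slc18a3, the vesicular acetylcholine transporter, was at 812, 636 and 638 CPM at ZT0 and 492, 347 and 436 CPM at ZT4, with no overlap (log2 change -0.71 ± 0.23, adjusted p = 0.118, edgeR). Chat, which makes acetylcholine, was at 68.4, 47.2 and 52.7 CPM at ZT0 and 32.0, 19.4 and 25.7 CPM at ZT4 and Slc5a7, the choline transporter, at 288, 284 and 345 CPM at ZT0 and 279.8, 207 and 173 CPM at ZT4, all below ZT0 in both. Slc18a3 lies inside the annotated span of Chat (chr14:32462437-32464850 within chr14:32408203-32465909, GRCm38.p6), so the count model may have divided reads between them. Ache, which breaks acetylcholine down, was at 929 ± 109 CPM at ZT0 and 666 ± 79.4 CPM at ZT4 (SD, n = 3), whereas Prima1, its membrane anchor, was at 166 and 169 CPM with overlap. Of 6 measured genes 5 lay all below and 0 all above, against 14.6% and 13.1% of all genes, with a median of -0.48. In libraries of this kind fewer cholinergic cells and less of this mRNA per cell cannot be told apart.

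Motor neuron identity genes did not share that side, with 2 of 16 all above, 2 all below and a median of 0.01. Both shares (12.5%) were near the 13.1% above and 14.6% below of all genes. Chodl, a marker of fast motor neurons, was at 325, 325 and 384 CPM at ZT0 and 429.8, 432 and 399 CPM at ZT4 and Foxp1, a factor of limb motor neurons, at 20.5, 20.9 and 18.6 CPM at ZT0 and 23.7, 32.1 and 26.2 CPM at ZT4, both all higher at ZT4. Mmp9, another gene of fast motor neurons, was at 82.0, 59.7 and 69.8 CPM at ZT0 and 57.2, 41.9 and 47.4 CPM at ZT4 and Isl1 at 16.0 ± 1.59 CPM at ZT0 and 12.0 ± 1.89 CPM at ZT4, both all lower. Prph, Mnx1 and Uts2 overlapped, at 2550.3 and 3086 CPM, 26.8 and 27.8 CPM and 188 and 204 CPM. Neurofilament and tubulin genes had 7 of 18 all below and 1 above (median -0.15). Nefm was at 12523 ± 834 CPM at ZT0 and 10185 ± 890.4 CPM at ZT4, Tubb4a at 1571 ± 114 CPM at ZT0 and 1126 ± 144 CPM at ZT4 and Tubb5 at 1720.0 ± 148 CPM at ZT0 and 1292 ± 142 CPM at ZT4 (SD, n = 3), all lower at ZT4, whereas Tuba1b at 3708 and 4433 CPM was all higher.

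Excitability and synapse genes were mixed as well. The voltage-gated channels had 4 of 38 all above and 9 all below (median -0.02). This and the next counts stand against 13.1% of all genes above and 14.6% below. Kcnc4, a potassium channel, was at 69.7, 70.1 and 70.3 CPM at ZT0 and 35.0, 25.8 and 43.3 CPM at ZT4 and Cacna1c, an L-type calcium channel, at 25.6, 25.7 and 27.5 CPM at ZT0 and 17.2, 18.5 and 15.9 CPM at ZT4, both all lower (log2 changes -1.03 ± 0.25 and -0.60 ± 0.15, adjusted p = 0.106 for each, edgeR). Kcna2 was at 778, 912 and 880.2 CPM at ZT0 and 1046, 1225 and 1153 CPM at ZT4 and Scn8a, the main sodium channel of the axon initial segment, at 832 ± 6.59 CPM at ZT0 and 984 ± 30.0 CPM at ZT4, both all higher. Synaptic vesicle genes had 4 of 25 above and 8 below, among the latter Sncg at 509, 409 and 462 CPM at ZT0 and 215, 165 and 275 CPM at ZT4. Glutamate receptor genes had 2 of 21 above and 2 below (9.52% each), under the shares of all genes. Among those below was Grin1, the obligatory NMDA receptor subunit, at 485 ± 51.1 CPM at ZT0 and 342 ± 42.4 CPM at ZT4. The lowest p in that list was held by Grina at 1254 ± 79.8 CPM at ZT0 and 903 ± 54.8 CPM at ZT4 (SD, n = 3). GABA and glycine receptor genes had 2 of 17 above and 4 below, with gephyrin (Gphn) at 58.7 and 47.6 CPM and the chloride transporter Slc12a5 at 849.8 and 689 CPM.

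Kinesin and dynein genes had 8 of 25 above and 6 below, against 13.1% and 14.6% of all genes, with a median of 0.11. Dynll2, a dynein light chain, was at 1369, 1595 and 1344 CPM at ZT0 and 1789, 1999.6 and 1947 CPM at ZT4 and Klc1, a kinesin light chain, at 3185 ± 246 CPM at ZT0 and 3907 ± 364 CPM at ZT4, both all higher, while Dync1li1 was at 39.1 ± 11.3 CPM at ZT0 and 13.4 ± 5.64 CPM at ZT4 and Klc2 at 940.1 ± 135 CPM at ZT0 and 638 ± 141 CPM at ZT4 (SD, n = 3), both all lower. The cholesterol genes had 2 of 22 above and 3 below (9.09% and 13.6%), under the shares of all genes, and a median of -0.0030. Of these genes Stard4, a sterol carrier, was at 51.1 ± 5.85 CPM at ZT0 and 74.4 ± 7.74 CPM at ZT4 and Lss at 21.9 and 14.7 CPM.

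**Figure D5:**
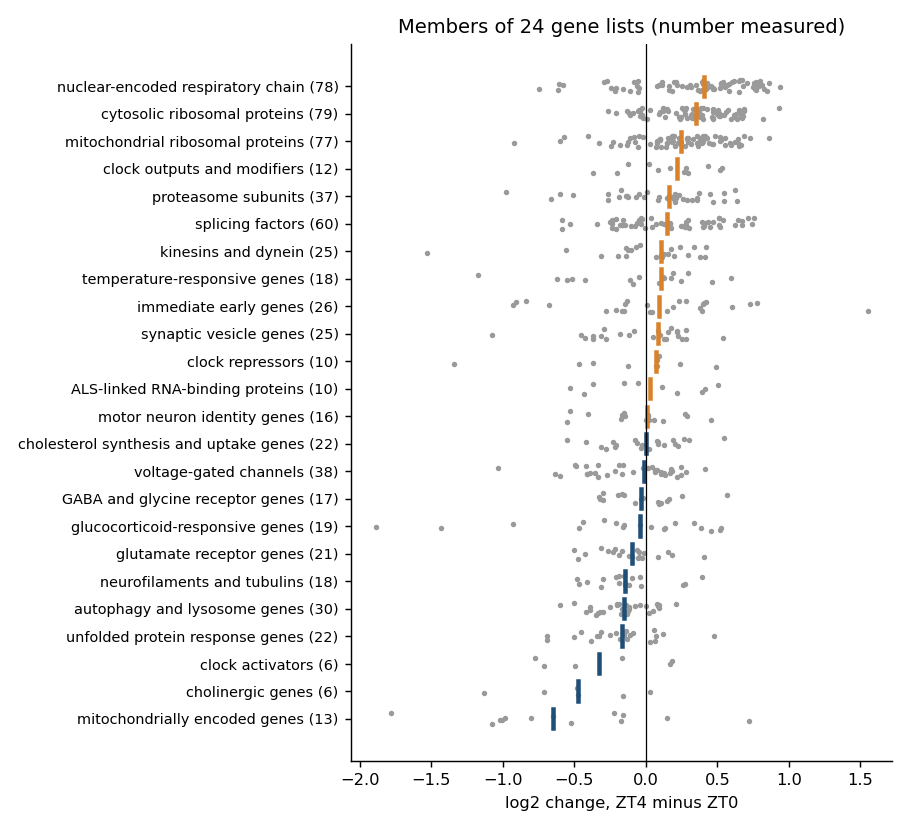
Log2 change from ZT0 to ZT4 (x axis) of each measured member (grey dots) of 24 gene lists, ordered by the list median (bar; orange above 0, blue below). The vertical line is the median of all genes tested (-0.0011), and the medians run from -0.65 in mitochondrially encoded genes to 0.40 in nuclear-encoded respiratory chain subunits.

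Across all genes, ranked by p with no gene called, the first on the higher side was Srp14, a subunit of the signal recognition particle, at 67.6, 89.1 and 77.0 CPM at ZT0 and 134, 167 and 134 CPM at ZT4 (log2 change 0.90 ± 0.17, adjusted p = 0.0951, edgeR). Next came Socs5, a suppressor of cytokine signalling, at 107, 119 and 119.5 CPM at ZT0 and 161, 185 and 165 CPM at ZT4, and Dnajc30, a mitochondrial J-domain protein, at 24.9 ± 3.71 CPM at ZT0 and 37.2 ± 3.72 CPM at ZT4 (SD, n = 3). H3f3b, which encodes the replacement histone H3.3, was at 103 ± 10.8 CPM at ZT0 and 165 ± 17.4 CPM at ZT4 and Kmt2d, a histone H3 methyltransferase, at 53.2 ± 3.33 CPM at ZT0 and 73.7 ± 5.42 CPM at ZT4. Tmem128, Cmc2, Nr2c2ap and Minar2 completed the 10 together with Srsf5, with log2 changes of 0.70, 0.78, 0.64 and 0.42.

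On the lower side the first was Dhx29, a helicase of translation initiation, at 21.9, 19.8 and 21.6 CPM at ZT0 and 12.1, 10.4 and 9.61 CPM at ZT4 (log2 change -0.97 ± 0.17, adjusted p = 0.0951, edgeR), followed by Snrnp200. Agt, which encodes angiotensinogen and is made mainly by astrocytes, was at 10.8, 9.69 and 7.06 CPM at ZT0 and 2.76, 1.28 and 3.78 CPM at ZT4 against 170.0 CPM in the input, and the summed astrocyte markers were 177 ± 11.0 CPM at ZT0 and 153 ± 16.6 CPM at ZT4 (SD, n = 3). The share of such carry-over in the difference was not tested. Nr1h2, the oxysterol receptor LXR beta, was at 39.0, 32.0 and 39.6 CPM at ZT0 and 16.3, 9.74 and 13.1 CPM at ZT4, and Por, the electron donor of cytochrome P450 enzymes, at 35.7 ± 4.69 CPM at ZT0 and 18.6 ± 2.25 CPM at ZT4. Ctnnbl1, Supt4a and Mmp17 had log2 changes of -0.80, -1.22 and -0.89, and Lcn2 and Ndufb2, described above, completed the 10.

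By size, the extremes were clustered protocadherins, cell adhesion genes of which single neurons use a few isoforms. Pcdha8 had 0 counts in all ZT0 libraries and was at 34.7, 12.6 and 3.47 CPM at ZT4. Its ZT4 mean of 16.9 CPM was at least 85.4-fold higher than a floor of 3 counts per library. The fold holds for the mean and not for each animal. Pcdha11 was at 2.82, 42.3 and 15.2 CPM at ZT0 and had 0 counts at ZT4. The floor was at least 75.7-fold lower than its ZT0 mean of 20.1 CPM. Pcdha12, Pcdhga3 and Pcdhga6 were likewise at 0 in ZT4. Their isoforms share exons, so reads are divided by the count model and these values are uncertain, and the 3 animals differed widely in Pcdha8 at ZT4 and in Pcdha11 at ZT0. Animals of other times differed as widely, with Pcdha11 at 19.2 ± 33.2 CPM at ZT8 and Pcdha8 at 10.7 ± 18.5 CPM at ZT16 (SD, n = 3). Other large differences were those of Pttg1, the securin of cell division, at 25.2, 44.0 and 31.0 CPM at ZT0 and 58.1, 82.0 and 65.9 CPM at ZT4, Tmprss5, a serine protease, at 4.29 ± 1.96 CPM at ZT0 and 9.44 ± 1.78 CPM at ZT4, Adamts5, a matrix protease, at 3.33 ± 1.41 CPM at ZT0 and 7.06 ± 1.95 CPM at ZT4, Tmem81 at 3.67 ± 1.42 CPM at ZT0 and 8.40 ± 2.09 CPM at ZT4 and, on the lower side, Ipo11, a nuclear import receptor, at 8.52 ± 1.49 CPM at ZT0 and 1.97 ± 1.13 CPM at ZT4 (SD, n = 3).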

How the data were processed

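Per the labels and methods, the authors precipitated tagged ribosomes from 1 spinal cord per animal, handled all samples on the same day, made stranded mRNA libraries, aligned paired reads with STAR 2.7.5 to mm10 and quantified genes with RSEM. The deposited values are expected counts per gene, not normalized by the authors, and 1.90% to 3.68% of them in each library had decimals. RSEM shares out reads that match more than 1 gene, so near-identical copies are uncertain.

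Counts were rounded, and filterByExpr of edgeR 4.0.16 (R 4.3.3) over the 6 time points left 15572 of 25601 genes with a count. TMM scaled the libraries, and log2 CPM carried a prior count of 2. ZT4 was compared with ZT0 by the quasi-likelihood F-test in a fit of all 18 immunoprecipitates (12 residual degrees of freedom, common coefficient of variation 19.2%), with Benjamini-Hochberg adjustment at 0.05. The script was tested on simulated data. A gene's groups do not overlap where all 3 ZT4 values of log2 CPM lie above, or below, all 3 ZT0 values. The floor of 3 counts covers counting error only, since reads carry no molecular identifiers. DESeq2 1.42.0 and limma 3.58.1 served as alternatives.

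Named genes were the 10 lowest p per direction and the 5 largest changes per direction (mean of at least 5 CPM, 6 predicted genes passed over) among genes without overlap, all measured members of the clock lists, and the 3 lowest p of each other list, with further members given as examples. Some genes that met these rules are not reported here. The members, lists and tests were chosen with earlier results of these data known. Coordinates and promoters are from RefSeq on GRCm38.p6, matched by symbol, and transcript lengths from GENCODE M21 (14729 genes matched).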

Additional observations from a re-analysis of the deposited data

How the results depend on the processing

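Genes called at an adjusted p of 0.05, 0 in the reported fit and 0 under each other scaling and under the replicate block, numbered 13 (1 higher) with at least 10 counts, 1541 (743) with at least 1 count, 1518 (751) with only the 6 libraries, 813 (476) by the DESeq2 Wald test, which left 7851 genes without an adjusted p, and 11 (1) by limma-voom. Leaving out 1 library or replicate number gave 0 to 376 calls (0 to 114 higher), with 376 without ZT8 replicate 1, 52 without ZT16 replicate 3, 45 without ZT8 replicate 2 and 1 without the libraries numbered 2. Of the 1518, 743 were among the 813 of DESeq2 (48.9% and 91.4%). The cause was not tested.

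Leave-outs gave 1951 to 3404 genes at unadjusted p under 0.05 (1001 to 1665 higher, 950 to 1793 lower) and 5196 to 6774 genes whose groups do not overlap (2468 to 3267 higher, 2679 to 3507 lower), the latter count resting on fewer values per group. The median log2 change of the nuclear-encoded respiratory chain ran from 0.33 to 0.50 over 30 alternatives, that of cytosolic ribosomal proteins from 0.29 to 0.44, of cholinergic genes from -0.62 to -0.40 and of mitochondrially encoded genes from -0.90 to -0.44. Medians of other lists changed sign. These were the glucocorticoid-responsive genes (-0.17 to 0.11), clock repressors (-0.11 to 0.086), immediate early genes (-0.025 to 0.17) and motor neuron identity genes (-0.11 to 0.038). The medians of the GABA and glycine receptor, ALS-linked RNA-binding protein, synaptic vesicle and cholesterol lists changed sign as well.

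Some clock genes with overlapping groups reversed. Without single libraries or replicate numbers, the log2 change ran from -0.015 to 0.37 for Clock, from -0.14 to 0.19 for Ciart, from -0.046 to 0.23 for Nr1d1, from -0.56 to 0.49 for Per3, from -0.17 to 0.24 for Nampt and from -0.39 to 0.22 for Nfil3. Nampt was at -0.0029 by library totals and Per3 at -0.017 by limma-voom.

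Replicate numbers were not treated as pairs in the reported fit. Deviations from the group means of equally numbered ZT0 and ZT4 libraries correlated at 0.08, 0.11 and -0.34. For unequally numbered libraries the correlations ran from -0.32 to 0.32. With 3 libraries per time, these values cannot show whether the samples were paired. With the replicate block 0 genes were called and 3111 had unadjusted p under 0.05. At the depth of ZT4 replicate 3, genes near 1 CPM are not resolved.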
